A study of Mus musculus with 8 samples.

Results

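The 10 genes described here encode transcription factors of β cell identity: *Pdx1*, *Mafa*, *Nkx6-1*, *Nkx2-2*, *Neurod1*, *Pax6*, *Isl1*, *Foxa2*, *Mnx1* and *Rfx6*. They were taken by gene symbol from a table of 32531 symbols, where each of the 10 has a row. All 10 had enough reads to be tested, among 15082 genes that reached 10 counts in 4 or more of the 8 libraries. RNA came from the pancreatic islets of 4 control mice and of 4 mice with Notch gain of function (β-tetO-NICD), whose libraries are called NICD here. Every mouse carried RIP-Cre, which is driven by an insulin gene promoter and so acts in β cells, and Rosa26-rtTA, the Dox-responsive activator. Only β-tetO-NICD mice also carried tetO_NICD, the inducible intracellular domain of Notch1. All mice were on a mixed C57BL/6J, 129X1/SvJ and BALB/c background, and all had been given doxycycline (Dox) in drinking water for 8 weeks. The comparison asks what sustained Notch activity in β cells does to islet gene expression. The libraries are of whole islets, so a lower level of a β cell gene can come from fewer β cells or from less RNA per β cell, and these cannot be told apart.

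In the mature islet these factors hold the β cell program together. Pdx1, Mafa and Neurod1 bind the insulin gene promoters, and Nkx6-1, Mnx1 and Nkx2-2 keep other endocrine programs silent in β cells. Pax6, Isl1, Neurod1, Nkx2-2, Foxa2 and Rfx6 are also used by other endocrine cells of the islet, whereas Mafa, Nkx6-1 and Mnx1 are largely restricted to adult mouse β cells and Pdx1 to β and δ cells. Notch acts through RBPJ and the Hes and Hey repressors, which hold back endocrine differentiation in the embryonic pancreas.

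Totals were between 22430941 and 25950164 counts per control library and between 21701223 and 26413146 per NICD library. *Notch1* had 1051 to 1562 counts in controls and 11388 to 36628 in NICD libraries, which do not overlap. Some library properties moved with or across the groups. Summed α cell markers (9 genes, with 4 called higher and none at 0 in every library) lay between 12395 and 43445 CPM (counts scaled to a common library size) in controls and between 56050 and 71042 CPM in β-tetO-NICD islets, and summed β cell markers (7 genes, with 3 called lower and none at 0 in every library) between 156629 and 197316 CPM and between 72014 and 171698 CPM. Each gene's deviation from its mean log2 CPM over the 8 libraries was correlated with transcript length, as a sign of RNA or library quality. Spearman's rho, computed across genes and so relative to the other libraries, was between −0.17 and 0.50 in controls. It was 0.45, −0.52, −0.36 and −0.51 in NICD libraries 1, 2, 4 and 5. NICD library 1 also had the highest sum of acinar markers, 127482 CPM against 35727 to 69883 CPM in the other 3 of its group. *Eif2s3y*, a Y-linked gene, was detected with 1300 and 1527 counts in controls 2 and 4 and with 1465 in NICD library 5, and had no more than 1 count elsewhere, although the methods name male mice as the source of islets for expression work.

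The windows below hold sequence around start sites of the genes whose levels are described next. Promoter windows of 250 bases before and 50 after the start site came from RefSeq (GRCm38.p6) for 9 of the 10 genes, all but *Mafa*. 5 windows are shown, for the 3 genes with the smallest p values among those with a window (*Pax6*, *Neurod1* and *Rfx6*) and for the pair whose window holds CACGTG (*Pdx1* and *Nkx2-2*). Capitals mark matches to letters tied to Notch signaling, searched on both strands: TGGGAA, the core of RBPJ sites, CACGTG and CACGCG, bound by Hes and Hey proteins, and CACNAG, the N-box. No 2 matches overlap in these windows. The RefSeq start sites of all 5 windows shown lie inside the genes as GENCODE M21 places them. The windows of *Pax6*, *Rfx6* and *Nkx2-2* lie wholly inside, so they are not upstream of these genes. *Pax6* has another window (chr2:105668646-105668945), which spans its GENCODE start. That window held no match to any of these letters and is not shown.
Pax6, second window (chr2:105682213-105682512, plus strand): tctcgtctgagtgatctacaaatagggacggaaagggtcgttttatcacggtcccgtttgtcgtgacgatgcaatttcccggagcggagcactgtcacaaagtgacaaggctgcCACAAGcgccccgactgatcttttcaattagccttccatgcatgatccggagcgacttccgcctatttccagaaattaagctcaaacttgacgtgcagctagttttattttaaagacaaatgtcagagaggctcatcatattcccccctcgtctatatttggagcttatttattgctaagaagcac
Neurod1 (chr2:79456587-79456886, minus strand): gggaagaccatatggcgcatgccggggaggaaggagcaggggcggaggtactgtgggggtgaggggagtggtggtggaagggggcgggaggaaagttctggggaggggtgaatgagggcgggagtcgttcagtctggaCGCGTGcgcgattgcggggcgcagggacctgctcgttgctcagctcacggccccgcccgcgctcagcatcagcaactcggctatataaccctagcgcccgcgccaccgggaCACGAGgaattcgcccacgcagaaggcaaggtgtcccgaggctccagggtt
Rfx6 (chr10:51685268-51685567, plus strand): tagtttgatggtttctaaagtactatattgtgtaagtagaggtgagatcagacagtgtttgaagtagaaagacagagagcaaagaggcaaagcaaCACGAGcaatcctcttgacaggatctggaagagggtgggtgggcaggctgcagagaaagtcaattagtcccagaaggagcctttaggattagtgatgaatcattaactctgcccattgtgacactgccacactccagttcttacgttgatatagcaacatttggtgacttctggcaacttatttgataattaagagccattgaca
Pdx1 (chr5:147269847-147270146, plus strand): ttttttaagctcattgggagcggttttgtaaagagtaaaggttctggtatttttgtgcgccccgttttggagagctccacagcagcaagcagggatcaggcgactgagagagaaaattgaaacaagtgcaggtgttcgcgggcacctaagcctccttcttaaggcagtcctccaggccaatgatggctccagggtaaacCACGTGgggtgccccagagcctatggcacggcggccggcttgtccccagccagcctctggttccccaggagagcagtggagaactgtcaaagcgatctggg
Nkx2-2 (chr2:147186353-147186652, minus strand): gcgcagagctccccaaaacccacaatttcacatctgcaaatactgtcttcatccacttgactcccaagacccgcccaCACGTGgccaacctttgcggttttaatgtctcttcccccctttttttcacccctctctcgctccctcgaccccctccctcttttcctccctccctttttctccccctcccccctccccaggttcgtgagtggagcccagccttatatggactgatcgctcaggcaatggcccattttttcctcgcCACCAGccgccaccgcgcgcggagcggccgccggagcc

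TGGGAA was in none of the 12 windows of the 9 genes, and in 25.6% of the 32851 promoter windows of the same length in the table. CACGTG was in 2 of the 12, the window of *Pdx1*, with its first base at position −51 from the start site, and that of *Nkx2-2*, at −173 (7.15% of all windows). CACGCG was in 3 of the 12, a window each of *Nkx6-1*, *Neurod1* and *Foxa2* (9.27% of all windows). The N-box letters were in 7 of the 12 windows, 1 window for each gene but *Pdx1* and *Isl1*, and in 42.5% of all windows. These matches describe the letters of the windows and were not tested as binding sites.

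None of the 10 genes had an adjusted p under 0.05 in edgeR's quasi-likelihood test, in which 1020 of the 15082 tested genes, or 6.76%, did. At an unadjusted p under 0.05 there were 3 of the 10 (*Pax6*, *Neurod1* and *Rfx6*), and 31.6% of all tested genes. With limma-voom none passed, where 462 of all tested genes were called lower and 621 higher. With DESeq2's Wald test *Pax6* and *Neurod1* passed (adjusted p = 0.00670 and 0.0171), in a fit that called 18.2% of all genes. In 2 of the 10 genes, *Pax6* and *Neurod1*, the groups did not overlap, as in 16.1% of all tested genes. The 10 genes had log2 fold changes on both sides of 0, 5 negative and 5 positive, with a median of −0.01, where the median of all tested genes was 7.5e-04. The plot of fold changes orders the genes from *Nkx2-2*, at 0.34, to *Mafa*, at −0.86.

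**Figure D1:**
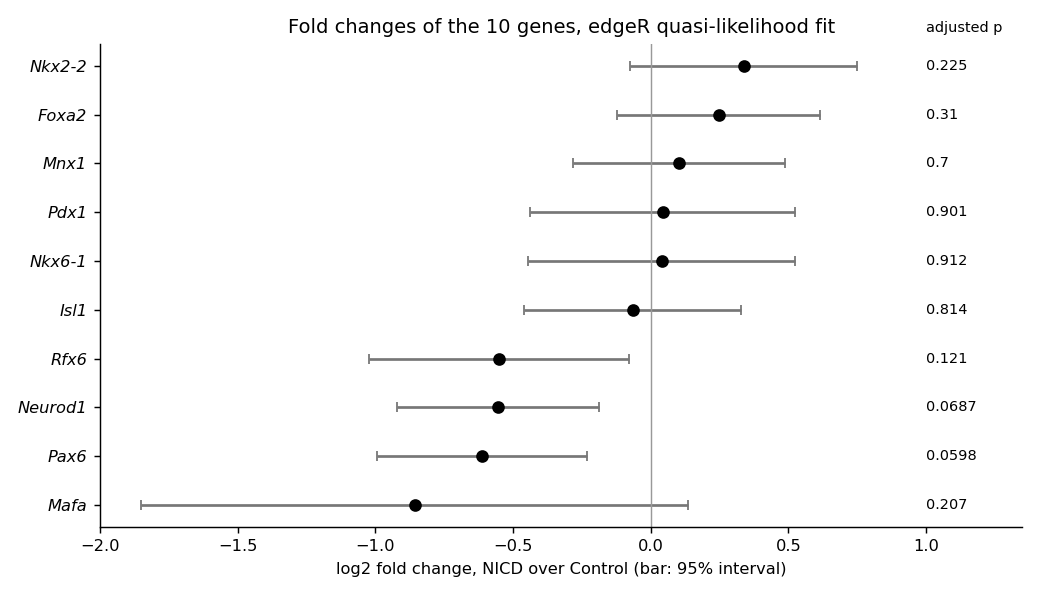
Log2 fold change of each of the 10 genes in β-tetO-NICD islets (NICD) over controls, with 95% intervals from edgeR's quasi-likelihood fit of 4 libraries per group and the adjusted p at the right. The intervals of *Pax6*, *Neurod1* and *Rfx6* lie below 0, and those of the other 7 genes include 0.

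*Pax6* encodes a factor with a paired domain and a homeodomain that all islet endocrine cells use, and acts on hormone genes and on insulin processing. Its level in controls 1 to 4 was 255, 237, 213 and 265 CPM after library normalization, and 205, 142, 136 and 152 CPM in NICD libraries 1, 2, 4 and 5. The highest NICD library, number 1, came just under the lowest control, number 3. The means were 242 ± 23.0 and 159 ± 31.9 CPM (SD, n = 4), and the log2 fold change was −0.61 (standard error 0.17, 95% interval −0.99 to −0.23, adjusted p = 0.0598). *Pax6* lies on chromosome 2 from 105668900 to 105697364 (GRCm38, GENCODE M21).

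*Neurod1*, on chromosome 2 from 79452521 to 79456751, encodes a basic helix-loop-helix activator of the insulin genes that is needed to keep β cells mature. Controls 1 to 4 had 119, 92.8, 90.3 and 93.0 CPM. NICD libraries 1, 2, 4 and 5 had 85.0, 62.7, 61.6 and 59.5 CPM. As for *Pax6*, every NICD library was below every control, with library 1 nearest to them. The log2 fold change was −0.55 (standard error 0.16, 95% interval −0.92 to −0.19, adjusted p = 0.0687), from 98.7 ± 13.3 to 67.2 ± 11.9 CPM (SD, n = 4).

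*Rfx6*, on chromosome 10 from 51677756 to 51730432, encodes a winged-helix factor that acts downstream of Neurog3 in endocrine development and keeps insulin secretion genes on in adult β cells. It had 88.6, 106, 84.5 and 112 CPM in controls 1 to 4 and 96.0, 50.3, 62.5 and 58.3 CPM in NICD libraries 1, 2, 4 and 5. Here library 1 lay within the range of the controls and the other 3 lay below it. The log2 fold change was −0.55 (standard error 0.21, 95% interval −1.02 to −0.08, adjusted p = 0.121).

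The calls of these 3 genes turned on the libraries and terms in the fit. Without NICD library 1, *Pax6*, *Neurod1* and *Rfx6* all passed, at log2 fold changes −0.76, −0.69 and −0.78 (adjusted p = 0.00743, 0.00937 and 0.00870). That fit called 33.2% of all tested genes, so 3 of 10 was close to the share of genes at large. With the acinar marker score as a covariate, *Pax6* and *Neurod1* passed (adjusted p = 0.0279 for both), where 9.67% of genes did. With an offset for the length trend of each library, both passed again, at −0.46 and −0.63 (adjusted p = 0.0418 and 0.0463), where 10.3% of genes did. When any of the other 7 libraries was left out instead, no gene of the 10 passed. The acinar sum and the length trend of library 1 stand apart in its group, as given above, and their part in these calls was not tested. *Pax6* has the longest transcript of the 10 genes, 4427 bases, and the trend at that length differed by −0.16 on the log2 scale between the groups, against 0.09 for *Neurod1* and −0.03 for *Rfx6*.

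**Figure D2:**
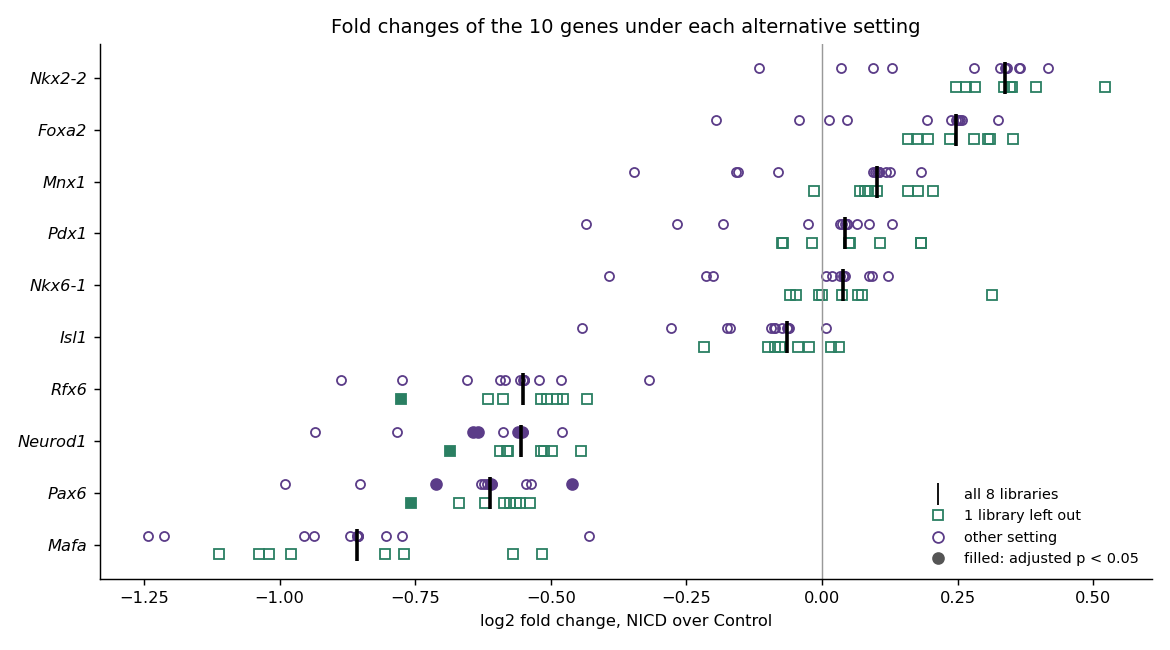
Log2 fold change of each gene with all 8 libraries (black bar), with 1 library left out (squares, 8 fits) and under the other 13 settings (circles); filled symbols have an adjusted p under 0.05. Filled symbols occur for *Pax6*, *Neurod1* and *Rfx6* alone, and for *Rfx6* only without NICD library 1.

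*Mafa*, on chromosome 15 from 75745490 to 75748228, encodes a basic leucine zipper activator of insulin and glucose-sensing genes that marks mature β cells. It had the lowest log2 fold change of the 10 genes and also the widest spread. Controls 1 to 4 had 72.5, 38.9, 49.4 and 109 CPM, and NICD libraries 1, 2, 4 and 5 had 30.6, 55.8, 49.8 and 12.9 CPM. The groups overlapped, with libraries 2 and 4 between controls 2 and 1, library 1 and library 5 below every control, and control 4 above all others. The smallest of these values, that of library 5, rests on 257 counts, for which counting alone gives a coefficient of variation of 6.24%, against 52.2% between the 4 NICD libraries and 46.3% between controls. The log2 fold change was −0.86 (standard error 0.45, 95% interval −1.85 to 0.14, adjusted p = 0.207). It was −0.52 without control 4, −0.57 without NICD library 5 and −0.43 among the 5 libraries with at most 1 *Eif2s3y* count. Without library 2 it was −1.11. With pan-endocrine or *Ppia* scaling it was −1.21 or −1.24 (adjusted p = 0.200 and 0.244). These scalings moved the median of all tested genes to −0.26 and −0.43.

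**Figure D3:**
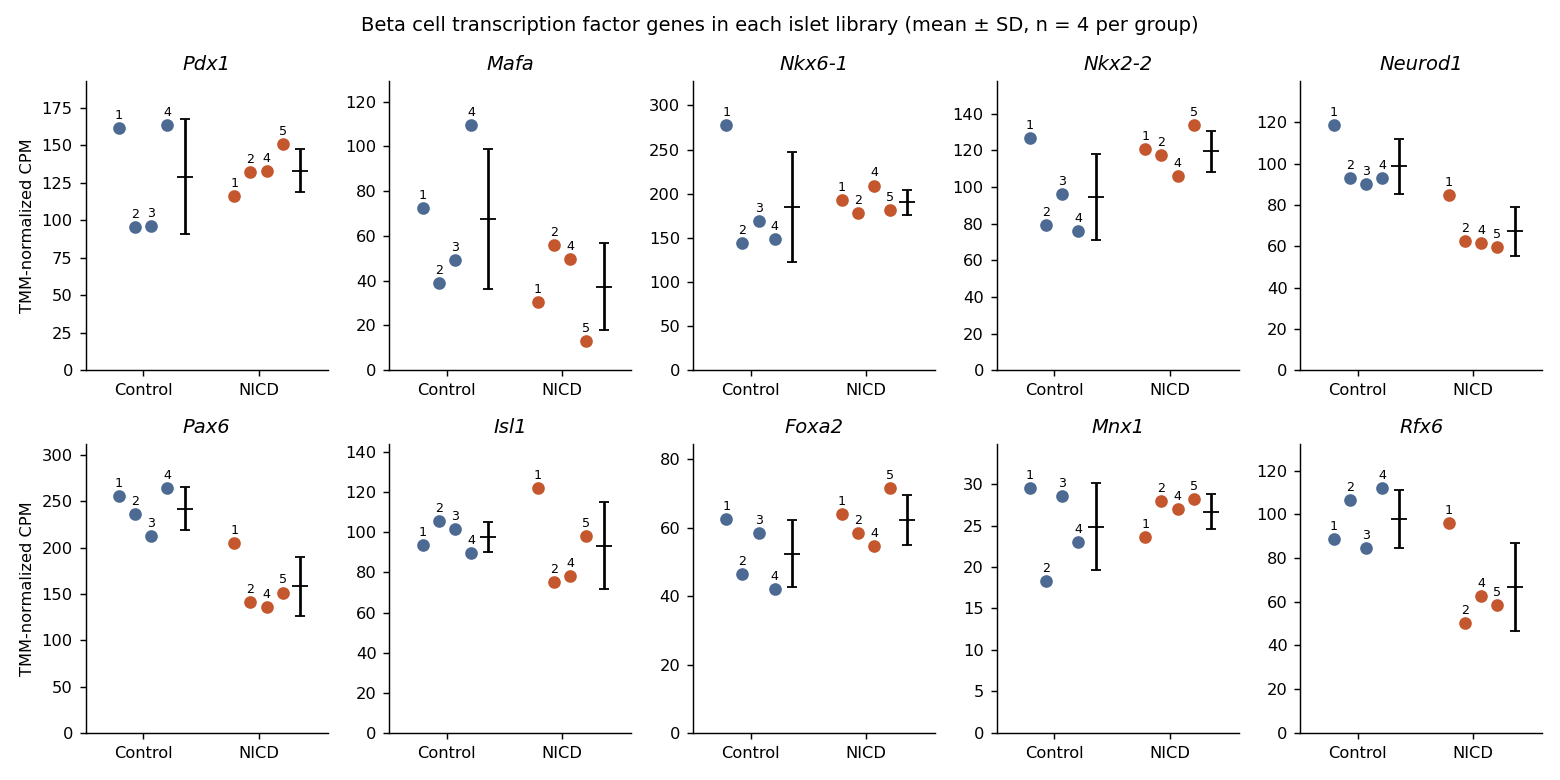
Level of each gene in every library, in CPM after TMM normalization, with the library number above each point and the mean ± SD (n = 4) beside each group. *Pax6* and *Neurod1* show no overlap between the groups, NICD library 1 is the highest of its group for *Pax6*, *Neurod1*, *Isl1* and *Rfx6*, and *Mafa* spreads from 12.9 to 109 CPM.

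The other 3 factors of largely β cell-restricted use had log2 fold changes of 0.04 to 0.10, whose sign turned negative with pan-endocrine or *Ppia* scaling. *Pdx1* (chromosome 5, 147269959 to 147275848), the homeodomain factor needed to form the pancreas and to express insulin, had 162, 95.4, 96.2 and 164 CPM in controls 1 to 4 and 116, 133, 133 and 151 CPM in NICD libraries 1, 2, 4 and 5. All 4 NICD libraries lay inside the range of the controls. Its log2 fold change was 0.04, with a 95% interval of −0.44 to 0.52, or 0.739-fold to 1.44-fold (adjusted p = 0.901).

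*Nkx6-1* (chromosome 5, 101658139 to 101664996), a homeodomain repressor of α cell genes, had 278, 145, 170 and 149 CPM in controls and 193, 178, 209 and 181 CPM in NICD libraries. Control 1 was the highest of all 8 libraries, and the β-tetO-NICD values lay between it and the other controls. The log2 fold change was 0.04 (95% interval −0.45 to 0.52, adjusted p = 0.912). Without control 1 it was 0.31 (adjusted p = 0.254).

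*Mnx1* (chromosome 5, 29473034 to 29478470), a homeodomain factor that restrains the δ cell program in β cells, was the least abundant of the 10. Controls had 29.5, 18.4, 28.6 and 23.0 CPM and NICD libraries 23.6, 27.9, 27.0 and 28.1 CPM. These ranges overlap, with a log2 fold change of 0.10 (95% interval −0.28 to 0.49, adjusted p = 0.700). The spread between NICD libraries was 7.38% of the mean for *Nkx6-1*, 7.80% for *Mnx1* and 10.7% for *Pdx1*, against 33.8%, 21% and 29.9% between controls; these spreads were not tested against each other.

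Among the factors shared by endocrine cells, *Isl1* (chromosome 13, 116298281 to 116309689), a LIM homeodomain factor, had 93.5, 106, 102 and 89.9 CPM in controls and 122, 75.1, 78.0 and 98.2 CPM in NICD libraries. Library 1 was above every control and libraries 2 and 4 were below every control. Its log2 fold change was −0.07 (95% interval −0.46 to 0.33, adjusted p = 0.814).

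*Nkx2-2* (chromosome 2, 147177546 to 147194243), a homeodomain factor that represses non-β programs, had 127, 79.5, 96.2 and 75.8 CPM in controls and 121, 117, 106 and 134 CPM in NICD libraries. Control 1 was within the β-tetO-NICD range and the other 3 controls were below it. The log2 fold change was 0.34 (standard error 0.18, 95% interval −0.07 to 0.75, adjusted p = 0.225), and 0.13 with the length offset.

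*Foxa2* (chromosome 2, 148042877 to 148046969), a forkhead factor that opens chromatin at pancreatic genes, had 62.6, 46.4, 58.6 and 42.2 CPM in controls and 64.1, 58.5, 54.7 and 71.7 CPM in NICD libraries, which overlap. Its log2 fold change was 0.25 (95% interval −0.12 to 0.62, adjusted p = 0.310), and 0.05 with the length offset. The trend with length differed between the groups by 0.21 on the log2 scale at the transcript lengths of both *Nkx2-2* and *Foxa2*, 2120 and 2128 bases.

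Ratios between 2 of the genes within a library are free of library scaling, although not of the length trend. Of the 45 pairs of the 10 genes, 8 gave ratios whose groups did not overlap, as did 17.7% of all pairs of tested genes, so that the count is no result about these genes and the values are given as a description. *Neurod1* over *Pax6* was nearly constant, between −1.51 and −1.11 on the log2 scale in controls and between −1.35 and −1.14 in NICD libraries. *Nkx2-2* over *Foxa2* was between 0.71 and 1.02 in controls and between 0.90 and 1.004 in NICD libraries. Ratios taken across these pairs did not overlap between the groups. *Nkx2-2* over *Pax6* was between −1.80 and −1.01 in controls and between −0.77 and −0.18 in NICD libraries, with means of −1.38 and −0.39.

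*Nkx2-2* over *Neurod1* was between −0.30 and 0.10 in controls and between 0.51 and 1.17 in NICD libraries. *Isl1* over *Rfx6* was between −0.32 and 0.27 and between 0.32 and 0.75. In these 3 ratios the groups did not overlap. *Pdx1* over *Nkx6-1* had the same mean, −0.52, in both groups. The 4 genes restricted to β cells (or β and δ cells), averaged and set over the 6 shared ones, were at −0.41 ± 0.32 in controls and −0.36 ± 0.41 in β-tetO-NICD islets (SD, n = 4), and the groups overlapped. The ratios shown were picked after their values were seen, and they carry no test.

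**Figure D4:**
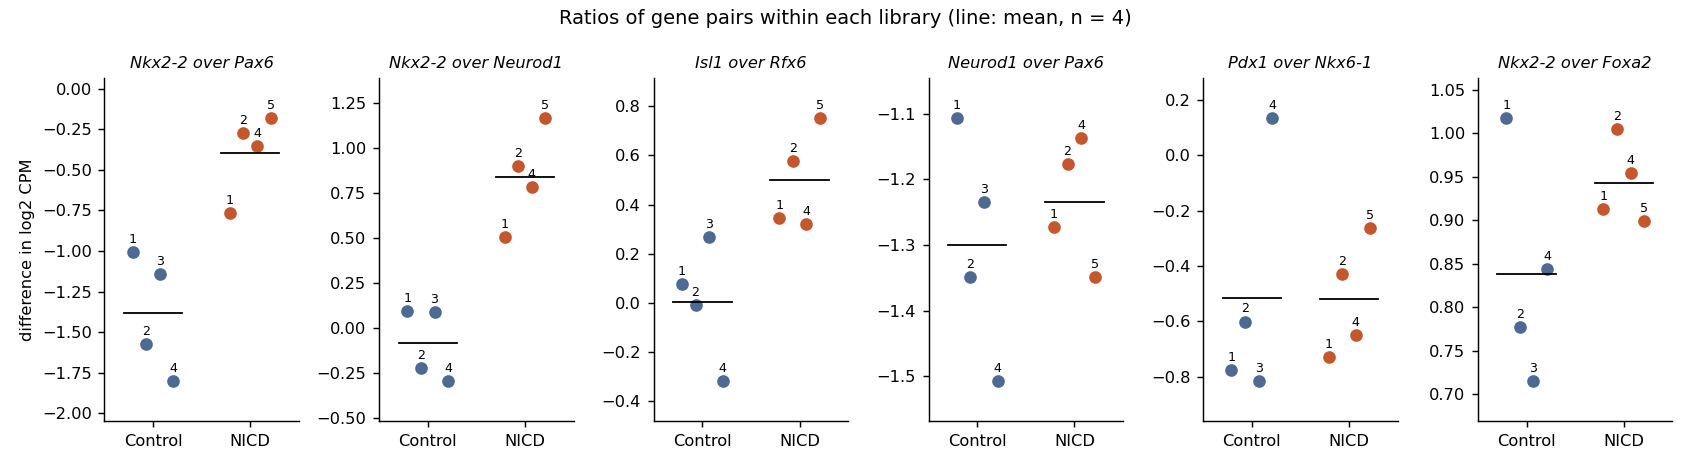
Difference in log2 CPM between 2 genes within each library, with library numbers above the points and a line at the group mean (n = 4). *Nkx2-2* over *Pax6*, *Nkx2-2* over *Neurod1* and *Isl1* over *Rfx6* separate the groups, and *Neurod1* over *Pax6*, *Pdx1* over *Nkx6-1* and *Nkx2-2* over *Foxa2* overlap. The vertical axes differ between panels.

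Levels were also set against each other per length, as normalized CPM per kilobase of the longest annotated transcript. In controls *Pdx1*, *Nkx6-1* and *Pax6* were highest, at 59.9 ± 17.9, 59.0 ± 19.95 and 54.7 ± 5.20 (SD, n = 4). *Nkx2-2*, *Isl1* and *Neurod1* followed at 44.6 ± 10.98, 38.8 ± 2.88 and 36.2 ± 4.89, then *Rfx6*, *Mafa* and *Foxa2* at 28.3 ± 3.87, 24.7 ± 11.4 and 24.6 ± 4.57, and *Mnx1* at 11.1 ± 2.32. Of the neighbors in this order, the control ranges were apart only between *Neurod1* and *Rfx6* and between *Foxa2* and *Mnx1*. *Mnx1* still exceeded 71.4% of tested genes per length in controls, and *Pdx1* 95.6%. Per median coding transcript instead of the longest, *Pax6* was first in controls at 87.2.

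In β-tetO-NICD islets, per length of the longest transcript, *Pdx1* and *Nkx6-1* were the top pair at 61.7 ± 6.62 and 60.7 ± 4.48 (SD, n = 4). *Pax6* was in place 5 at 35.8 ± 7.19 and *Foxa2* in place 6 at 29.2 ± 3.46, against places 3 and 9 in controls. *Mafa* and *Mnx1* had the lowest levels, 13.6 ± 7.11 and 11.9 ± 0.927, and their ranges overlapped. These places depend on the length used. Per median coding transcript, *Nkx2-2* was first in β-tetO-NICD islets at 75.3, followed by *Pdx1* and *Nkx6-1*, and *Pax6* was next at 57.1.

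A list of 24 genes on which these factors are known to act, written with earlier results of these data known, had 7 genes lower and none higher at an adjusted p under 0.05, where 2.57% of all tested genes were lower and 4.19% higher. The median log2 fold change of the list was −0.71, and 23 of the 24 were negative, where 49.9% of all tested genes were. *G6pc2*, an islet glucose-6-phosphatase subunit, had the smallest p, with a log2 fold change of −2.41 (adjusted p = 0.000138). *Sytl4*, of insulin granule docking, and *Ero1b* (listed as *Ero1lb*), which folds proinsulin, followed at −1.54 and −1.24 (adjusted p = 0.00170 and 0.0144). *Ucn3*, a marker of β cell maturity, *Slc2a2*, the Glut2 glucose transporter, *Pcx*, pyruvate carboxylase, and *Pcsk1*, a proinsulin convertase, were at −1.11, −1.80, −0.85 and −1.07 (adjusted p = 0.0273, 0.0331, 0.0357 and 0.0446). Of these 7, *G6pc2* and *Sytl4* passed whichever of the 8 libraries was left out, *Ero1b* in 7, *Ucn3* in 4, *Pcx* in 3, and *Slc2a2* and *Pcsk1* in 2. The count was 13 with DESeq2 and with the length offset, and 2, *G6pc2* and *Sytl4*, with pan-endocrine scaling and among the 5 libraries with at most 1 *Eif2s3y* count. All 7 β cell markers are in this list, and their sum and that of the α cell markers, given above, moved with it: the α sums were higher in every NICD library than in every control, and the β sums were below every control in NICD libraries 1, 2 and 4. The part of cell makeup in the list was not tested. The other 17 did not pass, among them *Ins1*, *Ins2* and *Iapp*, at −0.65, −0.56 and −0.59. *Ins1* and *Ins2* are close in sequence, and counting could have split their reads.

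A second list held 36 other transcription factors of islet and pancreas development, of which 32 could be tested. 6 were higher, 1 was lower and 25 did not pass, with a median log2 fold change of 0.03. Of all tested genes, 4.19% were higher and 2.57% lower. *Neurog3*, the factor of endocrine progenitors, and *Fev*, also of the endocrine lineage, had log2 fold changes, 1.72 and 1.22, above 0 (adjusted p = 0.00438 and 0.00705). *Irx1* and *Irx2*, factors of α cells, were at 1.46 and 1.30 (adjusted p = 0.0301 and 0.0431), and *Hhex*, of δ cells, at 1.01 (adjusted p = 0.0436). *Mlxipl*, the glucose-responsive factor ChREBP, was the 1 lower gene, at −1.11 (adjusted p = 0.0445). *Neurog3* and *Fev* passed whichever of the 8 libraries was left out, and the other 4 named here in 2 or 3 of these fits. With pan-endocrine scaling only these 2 of the list passed (adjusted p = 0.0374 and 0.0382). Neither passed with *Ppia* scaling (adjusted p = 0.146 and 0.237) or when the 3 libraries with more than 1 *Eif2s3y* count were left out (adjusted p = 0.0830 and 0.104), and no other gene of the list passed under these settings. The sums of α and δ cell markers moved with this list, and their part in it was not tested. The δ sum was between 2438 and 6583 CPM in controls and between 5083 and 14136 CPM in NICD libraries (4 genes, 1 called higher, none at 0 in every library).

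None of 12 cofactors of these factors passed, where 6.76% of all tested genes did. This list too was written with earlier results of these data known. Of the 12, 11 had negative log2 fold changes, with a median of −0.25, where 49.9% of all tested genes were negative. They include *Ldb1* and *Ssbp3*, partners of Isl1, at −0.02 and −0.18, the corepressor *Tle3* at −0.33, and the chromatin remodeler *Smarca4* at −0.41. The 6 Notch genes listed as a check (*Notch1*, *Hes1*, *Hey1*, *Heyl*, *Hes5* and *Nrarp*) were all higher, with log2 fold changes from 2.61 for *Hes1* upward.

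**Figure D5:**
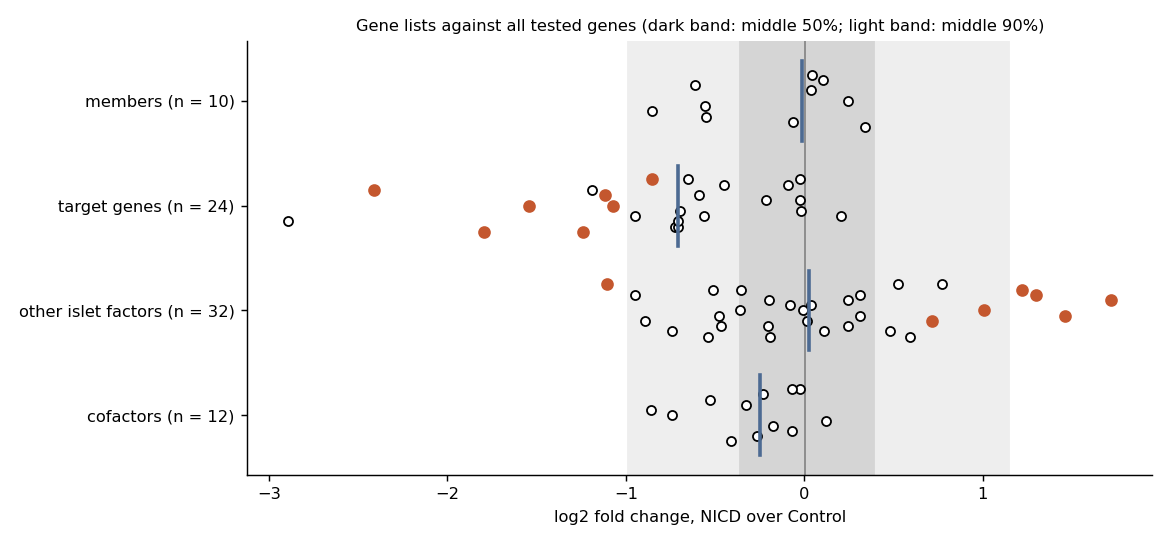
Log2 fold changes of the 10 factors (members), 24 target genes, 32 other islet factors and 12 cofactors, with a blue line at each list's median; filled points have an adjusted p under 0.05. The shaded bands hold the middle 50% and 90% of all 15082 tested genes. The median of the target genes, −0.71, is the lowest of the 4 lists, and no member is filled. All lists were written with earlier results of these data known, so the medians are descriptions.

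The genes whose pattern over the 8 libraries was most like that of *Pax6*, the factor with the smallest p, were *Chd7*, *Kpna1* and *Cep120*, with Pearson's r of log2 CPM of 0.992, 0.989 and 0.988. All 8 libraries enter these values, so the points share the group difference and the length trend, and r is given as a description with no test. The log2 fold change of *Chd7*, which encodes a chromatin remodeler, was −0.98 (adjusted p = 0.0229), and those of *Kpna1* and *Cep120* were −0.53 and −0.48 (adjusted p = 0.0674 and 0.0902). In all, 191 tested genes had r above 0.95 with *Pax6*, against 73 with *Neurod1*, 315 with *Rfx6*, 8 with *Mafa* and none with *Pdx1*.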

How the data were processed

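Whole-islet poly(A) RNA was sequenced from 4 control and 4 β-tetO-NICD mice. With Kallisto, the authors pseudoaligned reads of stranded libraries to mouse transcripts (GRCm38) and deposited whole-number counts per gene symbol, not normalized; the version, the annotation and the rounding are not given in the sources used here. A second deposited table holds the authors' own limma comparison (fold changes, mean expression and p values) and was not used.

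Columns were matched to samples by name. β-tetO-NICD columns are numbered 1, 2, 4 and 5 and mice 1 to 4, so columns 4 and 5 were assigned to the group only, and libraries are named by column. No column was left unmapped (0). No libraries of a group agreed within sampling noise (chi-square per gene at least 31.5). The length rho and the Pearson values are descriptions. P values measure the spread between these samples, taken as 1 mouse each.

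Genes that reached 10 counts in 4 or more of 8 libraries were tested with edgeR 4.0.16 (R 4.3.3): TMM factors, glmQLFit and glmQLFTest, no covariate, Benjamini-Hochberg adjustment over all 15082 tested genes, threshold 0.05. Where no test is named, an adjusted p is from this fit. Standard errors are the fold change over the root of F, and intervals cover 95%. CPM is scaled by TMM factors, and log2 CPM has a prior count of 2. Lengths and positions are from GENCODE M21, which gave a length for 14659 tested genes. The length offset is a lowess, per library, of log2 deviation on log2 transcript length. DESeq2 1.42.0, limma-voom (limma 3.58.1), other scalings, filters and covariates, the replicate number and each library left out were tried as alternatives. Member counts were between 257 and 6525 per library. The fits were tested on simulated counts first.

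The members and gene lists were chosen with earlier results of these data known. Named genes were the 10 members, the listed genes with an adjusted p under 0.05 (at most 8 per list) and the 3 genes most correlated with the member of smallest p; other listed genes were named after their values were seen. Some results for single listed genes are not reported here.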

Additional observations from a re-analysis of the deposited data

Results flagged for a closer look

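Dixon's test for a single outlying value was applied to the 4 libraries of each group for each of the 10 genes, 20 sets in all. It picked out 2 values, where chance gives about 1. Both were for *Neurod1*. Control 1 stood above the other controls (gap 0.904 of the range, 119 CPM against 90.3 to 93.0 CPM), and without it the log2 fold change of *Neurod1* was −0.45. NICD library 1 stood above the other 3 of its group (gap 0.874, 85.0 CPM against 59.5 to 62.7 CPM), and without it the log2 fold change was −0.69.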

How the results depend on the processing

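None of the 10 genes was called higher under any alternative. The number called lower was 2 with DESeq2, with the acinar covariate and with the length offset, 0 in all 8 libraries with the other scalings, filters and limma-voom, and between 0 and 3 with 1 library left out. The replicate number could be used as a block only for numbers 1 and 2, with the other 4 libraries as 1 level. The block called 1 of the 10 (*Neurod1*, log2 fold change −0.56, adjusted p = 0.0452). Of all 15082 tested genes, the same fit called 411 lower and 558 higher. Deviations from the group means correlated (across genes) at 0.276 for number 1 and −0.0901 for number 2. The crossed values were −0.0899 for control 1 with NICD library 2 and 0.163 for control 2 with NICD library 1. With so few libraries these values cannot decide whether a shared number marks a pair.

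Signs of the genes near 0 changed with the scaling. Scaling by pan-endocrine genes moved the median of all genes to −0.26 and that of the 10 genes to −0.27, with *Pdx1*, *Nkx6-1* and *Mnx1* at −0.27, −0.20 and −0.16. Scaling by *Ppia* moved these medians to −0.43 and −0.44, with *Pdx1*, *Nkx6-1*, *Nkx2-2*, *Foxa2* and *Mnx1* at −0.44, −0.39, −0.12, −0.20 and −0.35. With the length offset *Pdx1* and *Mnx1* were at −0.18 and −0.081. With upper-quartile factors *Isl1* was at 0.0064. Among the 5 libraries with at most 1 *Eif2s3y* count, *Pdx1*, *Nkx6-1*, *Foxa2* and *Mnx1* were at −0.025, −0.21, −0.042 and −0.16. With 1 library left out *Pdx1* was between −0.074 and 0.18, *Nkx6-1* between −0.059 and 0.31, *Mnx1* between −0.015 and 0.21, and *Isl1* between −0.22 and 0.030. *Mafa*, *Pax6*, *Neurod1* and *Rfx6* were negative under all 21 alternatives. The causes were not tested.

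The listed target genes called lower were 13 with DESeq2 and with the length offset, 2 with pan-endocrine scaling and among the 5 libraries, and between 2 and 14 with 1 library left out. The other islet factors called higher were 2 with pan-endocrine scaling, 0 with *Ppia* and among the 5 libraries, and between 2 and 7 with 1 left out. Those called lower were 3 with the acinar covariate, 0 with pan-endocrine or *Ppia* scaling and among the 5 libraries, and between 0 and 9 with 1 left out. Cofactors called lower were 1 with the acinar covariate and between 0 and 5 with 1 left out. Over all genes, those lower and higher were 1244 and 1495 with DESeq2, 115 and 211 with pan-endocrine scaling, 69 and 92 with *Ppia*, and 31 and 85 among the 5 libraries. Those lower were 707 with the acinar covariate and 678 with the length offset. With 1 library left out, those lower were between 97 and 2530 and those higher between 222 and 2423, the highest of both without NICD library 1.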

Other observations

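Markers of the other cells in the islet preparations overlapped between the groups in their summed levels. The sum was between 6346 and 13245 CPM in controls and between 3963 and 10207 CPM in NICD libraries for the PP cell hormones *Ppy* and *Pyy*, and between 366 and 570 CPM and between 483 and 609 CPM for 5 endothelial genes. It was between 199 and 298 CPM and between 222 and 452 CPM for 6 duct genes, and between 59.1 and 90.6 CPM and between 57.6 and 80.8 CPM for 5 macrophage genes. None of these genes had an adjusted p under 0.05.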
